A study of Mus musculus with 12 samples.

Results

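Untreated RAW264.7 cells carrying a knockout of Ing4 were compared with untreated wild-type cells of the same line over all genes. The libraries were chosen by genotype and treatment alone, which gave 2 knockout and 2 wild-type libraries, 4 of the 12 in the series. RAW264.7 is a mouse macrophage cell line that was grown in serum-containing medium, and RNA was measured by poly(A)-selected, stranded sequencing. Beside these 4 libraries, 2 wild-type and 2 Ing4 knockout libraries treated with lipopolysaccharide (LPS) at 100 ng/ml for 3 h, and 2 untreated libraries of a Socs1 knockout, were used to see how the same genes stood elsewhere. The sample descriptions read KO_19 for all Ing4 knockout libraries and KO_22 for all Socs1 knockout libraries, without saying what these numbers stand for. The labels do not say how either gene was disrupted, and it is not known here whether a genotype is 1 clone or several. The treatment protocol names HEK293T, a human line, although every sample is labelled as mouse RAW264.7. Whether the 2 libraries of each group are separate cultures is not stated in the labels, and the p-values then reflect the spread among these libraries alone, which may be technical.

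ING4 is a member of the inhibitor of growth family, whose PHD finger binds histone H3 methylated at lysine 4. It brings the histone acetyltransferase complex built around KAT7 (also called HBO1) to chromatin at active genes, and it has been described as a restraint on NF-kB target genes. In macrophages NF-kB drives cytokine and chemokine genes after LPS, and the resting state of such cells is set by lineage factors such as PU.1, the product of Spi1. The submitters' series title describes both targeted genes as E3 ligases, enzymes that attach ubiquitin to proteins.

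Ing4 itself lies on the plus strand at chr6:125039760-125049265 (GRCm38) and was counted at 10 and 5 reads in the wild-type libraries and at 6 and 29 in the knockout libraries. The groups overlapped, and the log2 change of 1.24 (SE 0.81) did not pass the test (edgeR adjusted p = 0.775). The counts of Ing4 therefore do not check the knockout label. A transcript on the same strand, Gm44597, covers 99.4% of the span of Ing4 and had 3 and 4 reads in wild type and 5 and 4 in the knockout. The sources used here do not say how reads in the shared stretch were counted. No gene on the list of ING proteins and KAT7 complexes was called, over 15 tested members with Ing4 among them and a median log2 change of 0.07. Kat7 changed by 0.09 (edgeR adjusted p = 0.91), and Ing5, the closest relative of Ing4, by -0.06 (edgeR adjusted p = 0.96).

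The 4 libraries held 19923854 to 20932111 counts, so 3 reads correspond to 0.131 to 0.138 CPM (counts scaled to library size and composition). Macrophage genes were abundant in both genotypes: Lyz2, Cd68, Spi1 and the F4/80 gene Adgre1 had at least 1769 reads in each of the 4 libraries. None of 31 tested macrophage markers was called, and their summed level was 25450 and 31300 CPM in wild type against 28460 and 40010 CPM in the knockout. Of the markers of other lineages, Cd3e, Epcam, Col1a1, Gata1, Flt3, Mpo and Ly6g were at 0 reads in all 4 libraries, but others were detected. Ighm, an immunoglobulin heavy chain gene, had 1555 and 403 reads in wild type and 953 and 46 in the knockout. Vwf, an endothelial and platelet gene, had 110 and 232 against 57 and 103. Of the dendritic cell markers, Bst2 had 2153 and 2594 reads against 1400 and 729, and Tcf4 2175 and 1457 against 1994 and 2115. Csf3r, a neutrophil marker, had 70 and 95 reads against 160 and 172. None of 5 tested dendritic cell markers and 3 tested monocyte and neutrophil markers was called with edgeR. The 18 markers of T, B and NK cells, of which 2 were tested, summed to 72.2 and 24.3 CPM in wild type and 44.1 and 5.67 CPM in the knockout. The part of these transcripts in the results was not tested. The summed level of 16 markers of fibroblasts, epithelium, endothelium and red cells was 0.395 CPM or less. Knockout library 2 stood apart from knockout library 1 in several gene groups, with values given beside each. In a bulk library, fewer cells of a type and less RNA per cell cannot be told apart.

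Of 12222 genes tested, 47 differed between untreated knockout and wild type at an adjusted p under 0.05 (0.385%). In the knockout 13 genes were higher (0.106%) and 34 were lower (0.278%), and 45 of the 47 code for proteins. The median absolute log2 change of the 47 was 4.03 on the fitted scale, also with the 2 genes undetected in the knockout set at their bounds, and the smallest was 0.98, while the median change of all tested genes was 0.01. For 23 of the 47 the higher group reached a mean of 10 CPM or more, and 9 had 0 to 3 reads over both libraries of the lower group. In all 47 the 2 knockout libraries lay on 1 side of the 2 wild-type libraries, as did those of 38.6% of all tested genes. Among the genes of the authors' deposited table of untreated differences, 104 in number with 33 higher and 71 lower, 41 were among the 47, and all 104 had the same sign here. That table compares the same groups of this series, so shared calls and signs are no separate evidence.

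**Figure D1:**
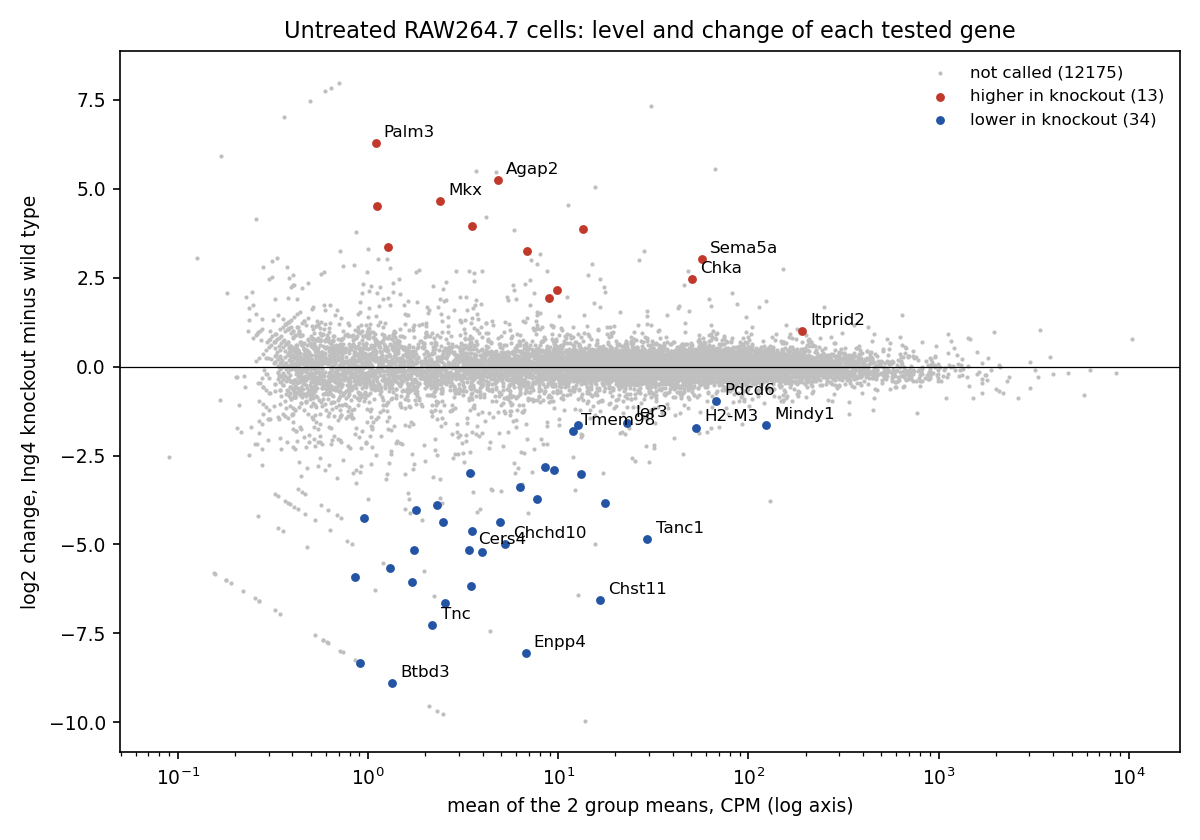
Each point is 1 of 12222 tested genes, with its mean level in CPM on a log axis and its fitted log2 change, Ing4 knockout minus wild type, in untreated cells. The 13 genes called higher are red, the 34 called lower are blue and the rest grey. Points on the lower and upper edges are genes with no or few reads in 1 group, whose fitted change is not a measured fold.

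The 4 genes with the smallest p-values changed in both directions, and they are shown first with the 250 bases before their annotated start (RefSeq, GRCm38.p6). Tanc1 codes for a scaffold protein of synapses, Enpp4 for a cell-surface nucleotide hydrolase, Chka for choline kinase alpha, which starts phosphatidylcholine synthesis, and Sema5a for a transmembrane semaphorin known from axon guidance. In the promoters below, capitals mark matches to the GC box GGGCGG on either strand, a letter pattern bound by Sp-family factors, and to the ETS core CCGGAAG on either strand. The windows are chr2:59611792-59612041 on the plus strand for Tanc1, chr17:44105810-44106059 on the minus strand for Enpp4, chr19:3851523-3851772 on the plus strand for Chka and chr15:32244563-32244812 on the plus strand for Sema5a. Tanc1 has 2 annotated windows, of which the first is shown.
Tanc1: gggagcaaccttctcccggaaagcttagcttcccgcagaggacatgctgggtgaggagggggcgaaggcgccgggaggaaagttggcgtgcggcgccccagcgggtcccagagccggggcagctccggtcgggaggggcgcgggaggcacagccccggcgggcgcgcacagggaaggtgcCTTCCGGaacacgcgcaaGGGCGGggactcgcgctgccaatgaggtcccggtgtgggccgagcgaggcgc
Enpp4: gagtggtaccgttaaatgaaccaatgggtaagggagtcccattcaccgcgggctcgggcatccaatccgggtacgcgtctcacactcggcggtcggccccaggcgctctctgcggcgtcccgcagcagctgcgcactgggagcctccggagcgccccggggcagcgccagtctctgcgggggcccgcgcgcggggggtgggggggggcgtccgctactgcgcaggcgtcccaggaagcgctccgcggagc
Chka: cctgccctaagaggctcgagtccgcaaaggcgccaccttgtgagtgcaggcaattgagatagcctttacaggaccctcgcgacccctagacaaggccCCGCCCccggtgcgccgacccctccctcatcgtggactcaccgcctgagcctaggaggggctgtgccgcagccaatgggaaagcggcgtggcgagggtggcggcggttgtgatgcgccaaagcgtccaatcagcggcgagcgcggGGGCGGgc
Sema5a: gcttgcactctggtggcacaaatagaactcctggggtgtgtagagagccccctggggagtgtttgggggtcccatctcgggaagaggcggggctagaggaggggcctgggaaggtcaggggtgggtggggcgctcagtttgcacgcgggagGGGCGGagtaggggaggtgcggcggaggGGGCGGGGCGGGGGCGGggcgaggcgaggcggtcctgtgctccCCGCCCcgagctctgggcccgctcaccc
The Sema5a window holds 5 GC boxes, that of Chka 2, that of Tanc1 1 and that of Enpp4 none. The windows hold 17, 24, 28 and 31 CpG dinucleotides for Sema5a, Chka, Tanc1 and Enpp4.

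Tanc1 (chr2:59612042-59846149) was measured at 55.5 and 58.4 CPM in wild type and at 2.27 and 1.66 CPM in the knockout. Both knockout libraries lay far below both wild-type libraries, and the log2 change was -4.85 (SE 0.21, edgeR adjusted p = 0.000188). Enpp4 (chr17:44096308-44105809) was at 14.6 and 12.3 CPM in wild type and at 0.0436 and 0.0461 CPM in the knockout. So few knockout reads remained that the ratio of the group counts, 300-fold, carries a 95% exact binomial counting interval of 82.7 to 2482 (edgeR adjusted p = 0.000386). Chka (chr19:3851773-3894369) had 17.1 and 14.03 CPM in wild type and 88.4 and 81.5 CPM in the knockout. This rise of 2.45 on the log2 scale (SE 0.18) passed the test with an edgeR adjusted p of 0.00273. Sema5a (chr15:32244810-32696341) was at 14.5 and 10.5 CPM in wild type against 112 and 89.7 CPM in the knockout, a log2 rise of 3.02 (SE 0.22, edgeR adjusted p = 0.00273). For Chka and Sema5a both knockout libraries lay well above both wild-type libraries. Only Tanc1 and Enpp4 were still called whichever of the 4 libraries was left out. In the fit of all 12 libraries Enpp4 and Chka were not called (edgeR adjusted p = 0.0696 and 0.431), while Tanc1 and Sema5a were (edgeR adjusted p = 0.000649 and 0.00427).

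Genes of transcription factors made up 3 of the 11 named rises, and all 3 were close to silent in wild type. The share of such genes among all tested genes was not counted, so this is no result about the class. Hoxc4, a homeobox factor of axial patterning, was at 0.132 and 0.0453 CPM in wild type and at 2.09 and 2.21 CPM in the knockout (log2 change 4.51, edgeR adjusted p = 0.0245). Sp8, a zinc finger factor of limb development, went from 0.219 and 0.226 CPM to 2.27 and 2.40 CPM (log2 change 3.36, edgeR adjusted p = 0.041). Mkx, the Mohawk homeobox factor of tendon, was at 0.219 and 0.136 CPM in wild type and at 3.84 and 5.34 CPM in the knockout (log2 change 4.65, edgeR adjusted p = 0.0373). In each of the 3, the groups did not overlap and the knockout level was 5.34 CPM or less. Hoxc6, next to Hoxc4 in the HoxC cluster, was at 0 CPM in both wild-type libraries and at 1.22 and 1.34 CPM in the knockout. It did not pass the test (edgeR adjusted p = 0.281) and is named here after its values were seen.

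The other rises are described by the known role of each gene, without a test of any such grouping here or among the falls. Agap2, a GTPase-activating protein for Arf that also enhances PI3 kinase signalling, was at 0.176 and 0.317 CPM in wild type and at 11.8 and 7.002 CPM in the knockout (log2 change 5.23, edgeR adjusted p = 0.0163). Peg12, an imprinted gene of the family of GSK3-binding Frat proteins, was at 0.483 and 0.362 CPM against 8.59 and 4.70 CPM (log2 change 3.96, edgeR adjusted p = 0.0373). Palm3, of the paralemmin family of membrane-attached proteins, had 1 read over both wild-type libraries and 2.35 and 1.98 CPM in the knockout, so its ratio of 97.5 has a counting interval of 17.1 to 3891. Cds1, which makes CDP-diacylglycerol for phosphoinositide synthesis, rose from 4.34 and 2.85 CPM to 14.8 and 17.4 CPM (log2 change 2.16, edgeR adjusted p = 0.0338). With Chka, it was 1 of 2 enzymes of phospholipid synthesis among the named rises. Slc8a1, a sodium-calcium exchanger, went from 3.86 and 3.62 CPM to 13.6 and 14.8 CPM (log2 change 1.92, edgeR adjusted p = 0.0328). Itprid2, a partner of inositol trisphosphate receptors, was at 124 and 130 CPM in wild type and 237 and 272 CPM in the knockout. Its change was the smallest of the 13, at 1.00 on the log2 scale (SE 0.15, edgeR adjusted p = 0.049), and it was called in only 5 of 13 alternatives. The 2 rises outside the naming rule, both with clone names, reached 10.3 to 31.4 CPM in the knockout; they are A230056P14Rik and 2610528A11Rik, named here after their values were seen.

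**Figure D2:**
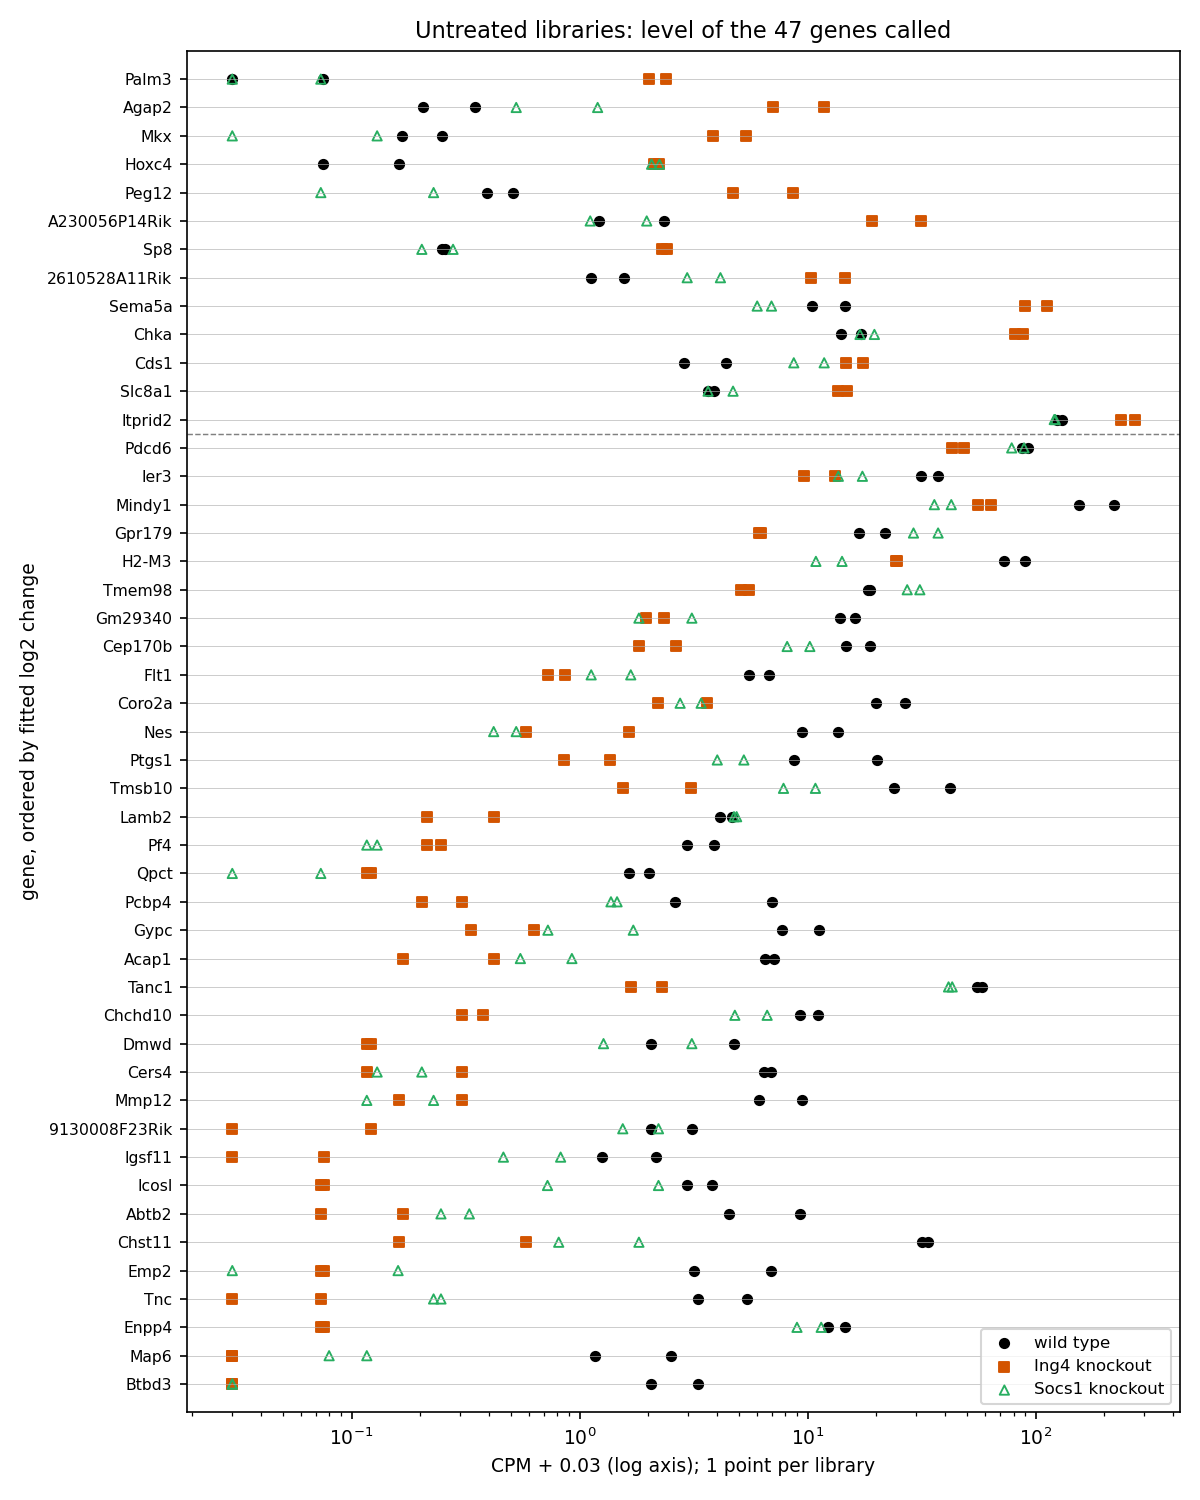
Level of each of the 47 called genes in each untreated library, as CPM + 0.03 on a log axis, ordered by fitted log2 change with the 13 rises above the dashed line and the 34 falls below it. Filled circles are the 2 wild-type libraries, squares the 2 Ing4 knockout libraries and open triangles the 2 Socs1 knockout libraries. Circles and squares are apart for every gene, and many genes in the lower part have knockout levels under 1 CPM.

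Among the falls were 5 genes of secreted proteins or of enzymes that act on matrix chains. Tnc, which codes for the matrix glycoprotein tenascin C, was at 3.29 and 5.39 CPM in wild type and at 0.0436 and 0 CPM in the knockout, a ratio of 193 with a counting interval of 34.2 to 7660. Chst11, a sulfotransferase that modifies chondroitin chains, was at 33.8 and 31.6 CPM in wild type and at 0.131 and 0.553 CPM in the knockout (log2 change -6.57, SE 0.61, edgeR adjusted p = 0.0163). Mmp12, the macrophage elastase, was at 6.10 and 9.46 CPM against 0.131 and 0.276 CPM (log2 change -5.22, edgeR adjusted p = 0.0145). These 3 were well expressed in wild type and close to the detection limit in the knockout. Lamb2, a laminin chain of basement membranes, fell from 4.08 and 4.62 CPM to 0.392 and 0.184 CPM (log2 change -3.88, edgeR adjusted p = 0.017). The chemokine Pf4 fell from 2.94 and 3.85 CPM to 0.218 and 0.184 CPM (log2 change -4.03, edgeR adjusted p = 0.0206).

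Some of the falls code for proteins of the cell surface. H2-M3, a non-classical MHC class I molecule that presents formylated bacterial peptides, was at 72.5 and 89.8 CPM in wild type and at 24.8 and 24.4 CPM in the knockout (log2 change -1.72, SE 0.19, edgeR adjusted p = 0.0163). Icosl, the ligand of the T-cell costimulator ICOS, was at 3.77 and 2.94 CPM against 0.0436 and 0.0461 CPM, a ratio of 75.1 with a counting interval of 20.4 to 626. Flt1, a receptor for vascular endothelial growth factor, was at 6.76 and 5.52 CPM in wild type and at 0.697 and 0.829 CPM in the knockout (log2 change -3.00, edgeR adjusted p = 0.0315). H2-M3 was still well detected in the knockout, whereas Icosl and Flt1 were below 1 CPM there. Emp2, a membrane protein with 4 spans, was at 3.16 and 6.88 CPM against 0.0436 and 0.0461 CPM, a ratio of 111 (counting interval 30.5 to 926). Igsf11, an adhesion molecule of the immunoglobulin superfamily, had a ratio of 74.6 (counting interval 13.0 to 2985), from 1.23 and 2.13 CPM to 0 and 0.0461 CPM. Gypc, glycophorin C, fell from 7.68 and 11.2 CPM to 0.305 and 0.599 CPM (log2 change -4.37, edgeR adjusted p = 0.0271). Tmem98, a single-span membrane protein, fell less, from 18.3 and 18.8 CPM to 5.06 and 5.53 CPM (log2 change -1.81, SE 0.19, edgeR adjusted p = 0.0145).

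Other falls code for proteins of the cytoskeleton or of membrane traffic. Map6, which stabilises microtubules, had 0 reads in both knockout libraries and 1.14 and 2.49 CPM in wild type, at least 26.9-fold lower when 3 counts are taken as the floor for the pair. Cep170b, a microtubule-associated protein, fell from 14.7 and 18.8 CPM to 1.79 and 2.63 CPM (log2 change -2.92, edgeR adjusted p = 0.0145). Coro2a, a coronin that binds actin, fell from 19.9 and 26.8 CPM to 2.18 and 3.59 CPM (log2 change -3.01, edgeR adjusted p = 0.0145). Acap1, an Arf6 regulator of endosomal recycling, fell from 6.45 and 7.06 CPM to 0.392 and 0.138 CPM (log2 change -4.63, edgeR adjusted p = 0.0194). In these 4 genes the knockout libraries lay below the wild-type libraries without overlap, and Map6 was undetected in the knockout. Btbd3, a BTB-domain protein known from dendrite orientation, likewise had 0 knockout reads, with 3.29 and 2.04 CPM in wild type, at least 39.8-fold lower.

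The remaining named falls have varied roles. Cers4, a ceramide synthase, was at 6.85 and 6.43 CPM in wild type and at 0.0872 and 0.276 CPM in the knockout (log2 change -5.16, edgeR adjusted p = 0.0145). Chchd10, a mitochondrial protein of the intermembrane space, was at 9.22 and 11.04 CPM against 0.349 and 0.276 CPM (log2 change -4.99, SE 0.38, edgeR adjusted p = 0.00273). Abtb2, an ankyrin and BTB domain protein, was at 4.48 and 9.28 CPM against 0.0436 and 0.138 CPM (log2 change -6.17, edgeR adjusted p = 0.0145). All 3 were below 1 CPM in the knockout. Mindy1, a deubiquitinase for long lysine-48 chains, was at 154 and 220 CPM in wild type and 56.0 and 63.5 CPM in the knockout (log2 change -1.65, SE 0.20, edgeR adjusted p = 0.0232). Ier3, an immediate early gene induced by NF-kB, was at 31.3 and 37.3 CPM against 13.2 and 9.63 CPM (log2 change -1.59, edgeR adjusted p = 0.0414), and was called in only 5 of 13 alternatives. Pcbp4, an RNA-binding protein, and Dmwd, a WD-repeat protein, changed by -4.37 and -5.15 (edgeR adjusted p = 0.0373 and 0.0478). The clone-named 9130008F23Rik had 2 knockout reads and a ratio of 56.7 (counting interval 15.3 to 474). The 7 falls outside the naming rule changed by -0.98 to -4.25.

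One small fall lay beside genes with changes of like size. Pdcd6, a calcium-binding protein of membrane repair, is the 1 of the 7 with the smallest change. It was at 87.1 and 92.5 CPM in wild type and at 42.9 and 48.3 CPM in the knockout (log2 change -0.98, SE 0.15, edgeR adjusted p = 0.048). The 2 tested genes that follow it on 1 side on chromosome 13 are Sdha, a subunit of succinate dehydrogenase, and Ccdc127. These genes and the others of this paragraph are named after their values were seen. Sdha was at 349 and 341 CPM in wild type and at 185 and 175 CPM in the knockout (log2 change -0.94, SE 0.16), which missed the threshold (edgeR adjusted p = 0.0821). Ccdc127 was at 52.5 and 48.6 CPM against 24.1 and 24.6 CPM (log2 change -1.05, SE 0.17, edgeR adjusted p = 0.0536). In all 3 genes both knockout libraries lay well below both wild-type libraries. The untreated Socs1 knockout libraries were 88.9 and 78.5 CPM for Pdcd6, 372 and 358 CPM for Sdha and 47.6 and 58.7 CPM for Ccdc127, near or above wild type. After LPS, 3 of 3 passed the test, with log2 changes of -1.01, -0.97 and -0.91 (edgeR adjusted p = 0.0349, 0.0357 and 0.0392). On the other side of Pdcd6 the changes were positive and did not pass the test: 0.62 for Ahrr, the nearest, and 0.24 for Exoc3 beyond it (edgeR adjusted p = 0.799 and 0.736). Of the 10 nearest tested genes, 5 had the sign of Pdcd6. The call of Pdcd6 itself was lost in 5 of 13 alternatives, among them the replicate block and the fit of all 12 libraries (edgeR adjusted p = 0.0623 in the latter).

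The same genotypes were next compared after LPS, in other libraries, to see whether the untreated differences were also present there. After LPS 86 of 12529 genes were called (0.686%), 25 higher (0.2%) and 61 lower (0.487%) in the knockout. All 47 genes called untreated had the same sign after LPS. Of the 47, 37 were called after LPS, 11 of the 13 rises and 26 of the 34 falls. Over the 12111 genes tested in both states, 74.7% had the same sign. Same-numbered libraries of a genotype deviated together across treatments, with correlations of 0.447 for wild type and 0.601 for the Ing4 knockout, so the LPS libraries are not wholly separate evidence. The change was smaller after LPS in 27 of the 47, and the median absolute log2 change was 3.93 after LPS. Because the 47 were chosen by their untreated change, a smaller change in other libraries cannot be read as an effect of LPS.

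**Figure D3:**
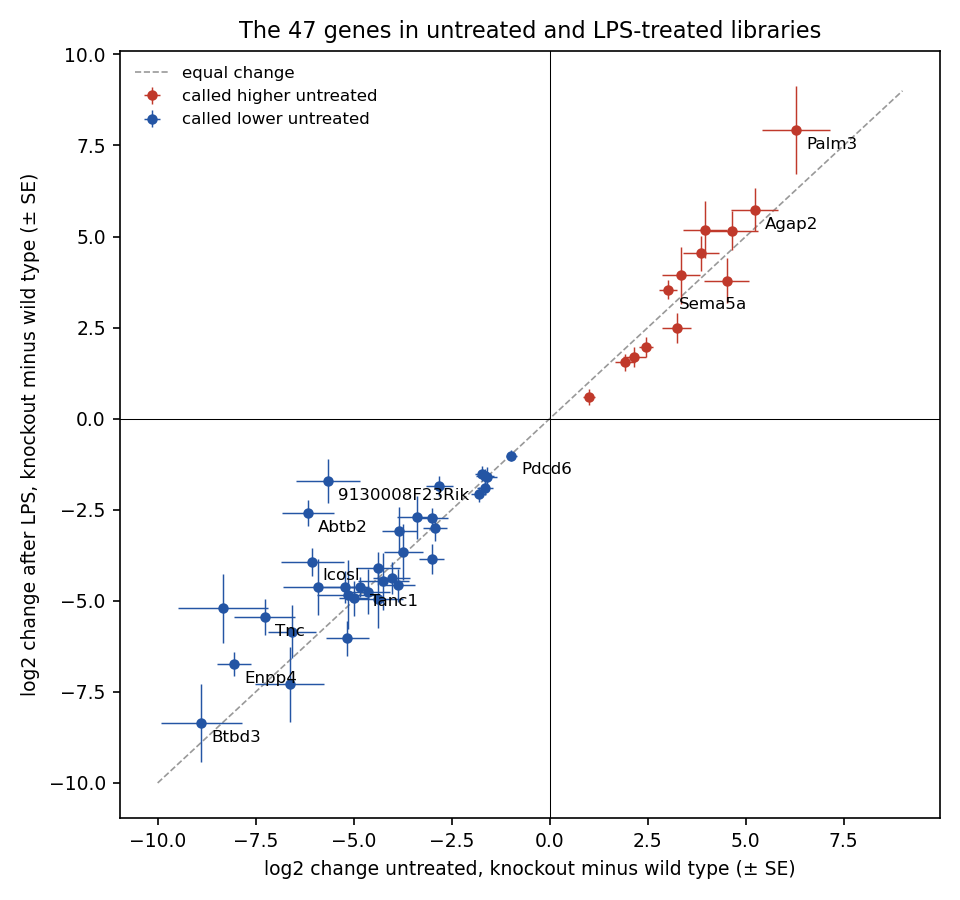
Fitted log2 change of the 47 genes, Ing4 knockout minus wild type, in untreated libraries (horizontal) and after LPS (vertical), with standard errors as bars. All points lie in the lower left or upper right part, most near the dashed line of equal change, and Abtb2 and 9130008F23Rik lie well above it.

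Several of these genes were higher in LPS-treated than in untreated wild-type libraries, a difference that was not tested here. Enpp4 was at 77.6 and 118 CPM in LPS-treated wild type and at 1.14 and 0.664 CPM in the LPS-treated knockout. Chst11 was at 171 and 136 CPM against 0.713 and 4.70 CPM, and Tnc at 54.4 and 55.1 CPM against 1.85 and 0.609 CPM. In these 3 genes the knockout libraries were at 4.70 CPM or less in both states, but they too were higher after LPS. Their untreated knockout levels were 0.0436 and 0.0461 CPM for Enpp4, 0.131 and 0.553 CPM for Chst11, and 0.0436 and 0 CPM for Tnc. Ier3 stood at 570 and 748 CPM against 268 and 165 CPM, a log2 change of -1.61 beside -1.59 untreated, but missed the threshold after LPS (edgeR adjusted p = 0.0537). Abtb2 was at 32.8 and 41.3 CPM against 5.89 and 6.31 CPM, so its change was -2.60 after LPS and -6.17 untreated. The difference, 3.57 on the log2 scale, had an unadjusted edgeR p of 0.00101 and an adjusted p of 1. The test of the difference between the states called 0 of 12529 genes with edgeR, where 136 had an unadjusted p under 0.05, and limma-voom called 0 and DESeq2 3. Among the 47, 4 had an unadjusted p under 0.05 in it, and all 4 are falls, as are 34 of the 47. The 47 were chosen on untreated libraries that this test also uses, so these counts are no separate evidence.

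The untreated Socs1 knockout libraries give a view of the same genes in another genotype. They are compared with the same Ing4 knockout libraries, so this test shares libraries with the one against wild type and is no separate evidence. Between the Ing4 and Socs1 knockouts 14 of 12222 genes were called (0.115%), 8 higher (0.0655%) and 6 lower (0.0491%) in the Ing4 knockout. Of the 47 genes called against wild type, 11 were called here too. Tanc1 was at 41.5 and 43.0 CPM and Enpp4 at 11.4 and 8.96 CPM in the Socs1 knockout, well above the Ing4 knockout. The log2 changes, Ing4 minus Socs1 knockout, were -4.41 and -7.65 (edgeR adjusted p = 0.000355 and 0.000583). Chka was at 16.9 and 19.6 CPM and Sema5a at 5.98 and 6.92 CPM in the Socs1 knockout, with log2 changes, Ing4 minus Socs1 knockout, of 2.22 and 3.98 (edgeR adjusted p = 0.00395 and 0.000653). Chchd10, at 4.77 and 6.62 CPM, and Lamb2, at 4.85 and 4.73 CPM, were also higher in the Socs1 knockout (log2 changes of -4.15 and -4.01, edgeR adjusted p = 0.00831 and 0.0284). These genes were at levels in the Socs1 knockout nearer to wild type than to the Ing4 knockout.

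Other members of the set were low, or high, in both knockouts. Cers4 was at 0.173 and 0.0995 CPM in the Socs1 knockout, Mmp12 at 0.0867 and 0.199 CPM, and Pf4 at 0.0867 and 0.0995 CPM. Btbd3 had 0 reads in both Socs1 knockout libraries, as in both Ing4 knockout libraries. All 4 were thus low in both knockouts. So were Tnc, at 0.217 and 0.199 CPM in the Socs1 knockout, Emp2 at 0.130 and 0 CPM, and Abtb2 at 0.217 and 0.299 CPM. Chst11, at 0.780 and 1.79 CPM there, and Coro2a, at 2.73 and 3.38 CPM, were also far below wild type. H2-M3 was at 14.1 and 10.8 CPM and Mindy1 at 35.9 and 42.6 CPM in the Socs1 knockout, lower than in the Ing4 knockout. Hoxc4 was at 2.21 and 2.04 CPM there, close to its Ing4 knockout level, with a log2 difference of 0.02. For such genes the wild-type libraries stand apart from both knockouts, and an effect of a targeted gene and a difference between the cultures cannot be told apart. The same holds for the other called genes, among them those nearer to wild type in the Socs1 knockout, such as Tanc1 and Enpp4. How many clones stand behind each genotype is not known here.

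The gene lists for macrophage functions held at most 1 called gene each with edgeR, whose calls are the ones given for the lists from here on. Pf4 was called lower in 2 lists, chemokines and platelet markers, and H2-M3, Cers4, Flt1, Lamb2, Mmp12, Chchd10 and Ier3 each in 1 further list. No list had a member called higher and none had more than 1 called, beside 0.278% called lower over all tested genes. The lists with a called member had from 3 tested members (platelet markers) to 35 (mitochondrial respiratory chain and cristae). In lists of such size 1 called member is already a larger share than 0.278%, and no list was tested as a set. DESeq2, which called more genes in all, also called more list members. It called 5 of 16 tested chemokine and receptor genes lower and 1 higher. Lower with DESeq2 were also 3 of 56 type I interferon genes, 4 of 24 immediate early genes and 2 of 22 MHC class I genes. Members that were not called are named after their values were seen. The lists are described by their medians, against a median of 0.01 for all tested genes.

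Genes that answer to type I interferon were mostly lower without passing the test: 51 of 56 tested members had a negative log2 change, none was called and the median was -0.72. Cmpk2, Oasl1 and Rsad2, members of this list, had values of -2.96, -2.21 and -2.28 (edgeR adjusted p = 0.21, 0.26 and 0.45). The summed level was 2331 and 2376 CPM in wild type and 1817 and 1489 CPM in the Ing4 knockout. It was 1157 and 1970 CPM in the Socs1 knockout, so the level also differed between libraries of 1 genotype. The median was -1.10 without knockout library 1 and -0.45 without knockout library 2, and after LPS it was -0.13. Chemokines and their receptors had a median of -1.09 over 16 tested members untreated and of -0.14 after LPS. The chemokine genes Ccl4 and Cxcl2 had log2 changes of -1.84 and -2.42 that missed the threshold (edgeR adjusted p = 0.11 and 0.24), and 4 of the 16 were positive, among them Cxcl16 at 1.18 and Cxcr4 at 2.28 (edgeR adjusted p = 0.12 and 0.74). Inflammatory cytokines had a median of -0.68 over 11 members, with Tnf at -0.70 (edgeR adjusted p = 0.45). The subunits and inhibitors of NF-kB had a median of -0.05 over 17 members, Nfkb1 at 0.01 and Rela at 0.05. No member of the Toll-like receptor pathway was called (31 tested, median 0.12), nor of the JAK-STAT and SOCS genes (34 tested, median 0.13).

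Antigen presentation genes had mostly negative values. Of 22 tested MHC class I genes 21 had a negative change, with a median of -0.47, and H2-M3 was the 1 called. The 13 that lie on chromosome 17 from 30 Mb on had a median of -0.59, and the other 9 one of -0.41. The chaperones and enzymes of the unfolded protein response had a median of -0.40 (22 of 25 negative, none called) and glycolysis genes one of -0.39 (24 of 30 negative, none called). Cytosolic ribosomal protein genes were negative in 31 of 31, with a median of -0.26 and none called. The 2 knockout libraries differed from each other here. The summed level of the unfolded protein response list was 9695 and 9315 CPM in wild type and 7639 and 4512 CPM in the knockout, and that of the ribosomal list 19530 and 21780 CPM against 19890 and 14480 CPM. Without knockout library 2 the medians were -0.24 for the unfolded protein response and -0.05 for ribosomal genes. The glycolysis median was -0.09 without wild-type library 2. Genes of cholesterol and fatty acid synthesis had a median of 0.19 (26 of 31 positive, none called), which was -0.16 without knockout library 1. The 11 tested genes of the mitochondrial genome had a median of 0.70 with none called. The part of these library differences in the list values was not tested.

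**Figure D4:**
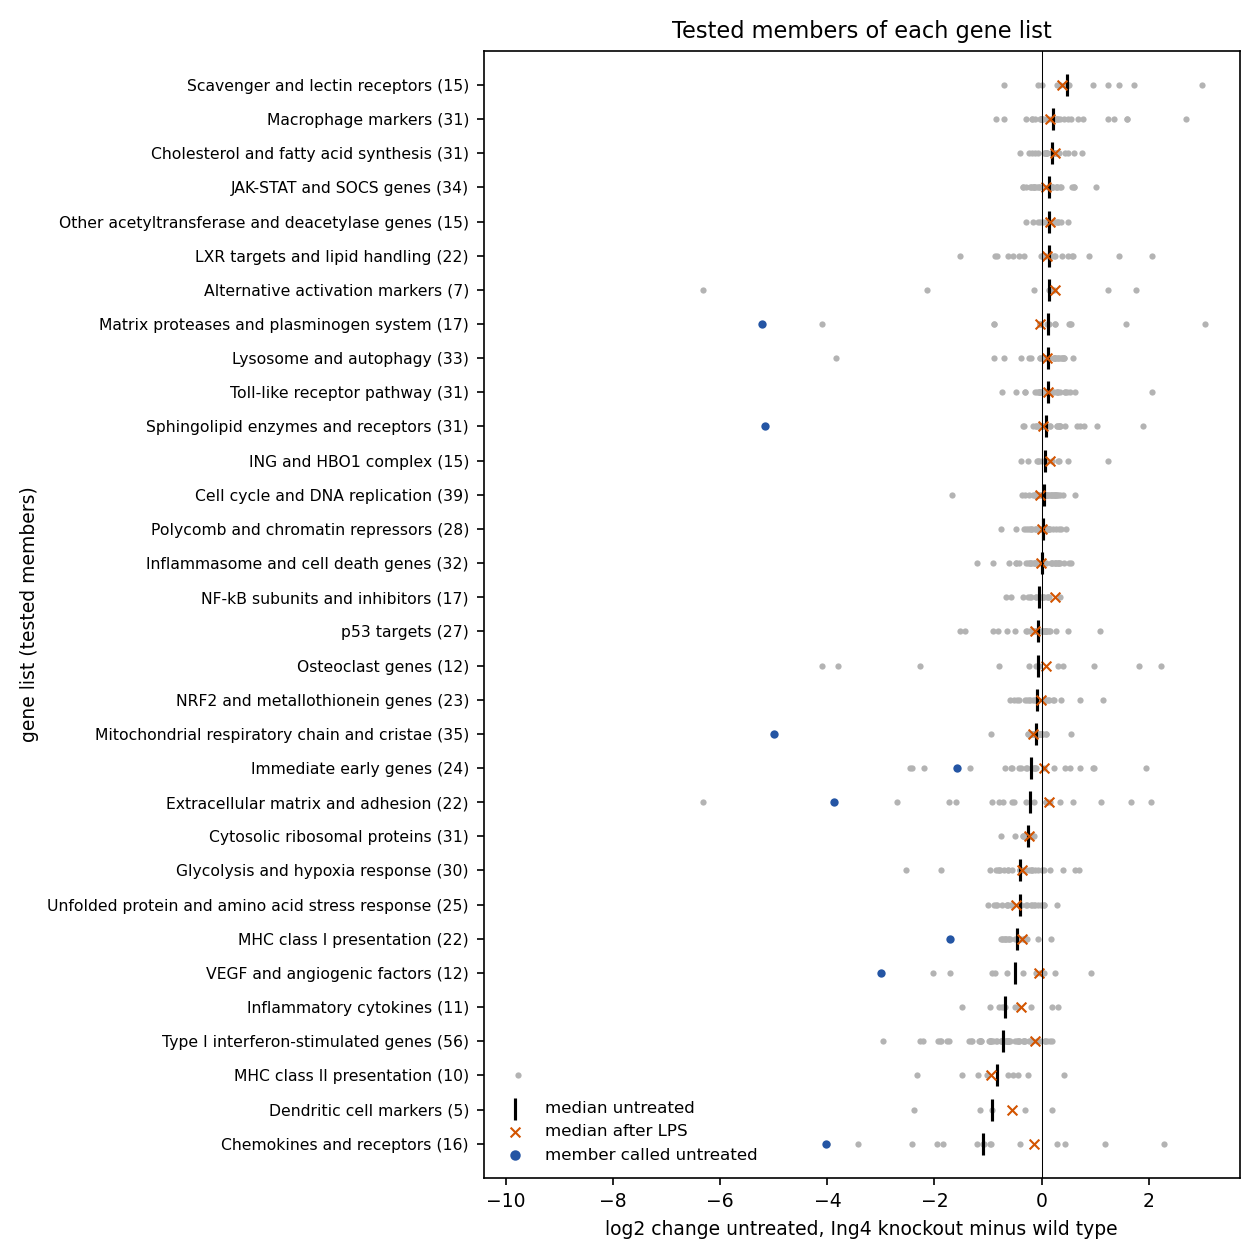
Log2 change, untreated Ing4 knockout minus wild type, of each tested member of the gene lists with 5 or more tested members (number in parentheses). Grey points are members that were not called, blue points those called, black bars the list medians untreated and orange crosses the medians after LPS. No list has more than 1 member called with edgeR. The interferon and chemokine lists have medians of -0.72 and -1.09 untreated against -0.13 and -0.14 after LPS.

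The change was not spread evenly over the genome. On chromosome 17 from 30 Mb to its end, 342 of 401 tested genes (85.3%) were lower in the knockout, with a median log2 change of -0.34, and 5 were called lower and 1 higher. On the rest of chromosome 17 the median over 236 genes was 0.10. On chromosome 12 before 60 Mb, 121 of 147 genes (82.3%) were lower, with a median of -0.33, and none was called, while the median over the other 295 genes of that chromosome was 0.03. Over the 11136 genes of all other chromosomes, 5231 were lower and the median was 0.02. The borders were set after the values were seen, so these numbers are a description without a test. Of 236 bins of 5 Mb with at least 20 tested genes, 9 had a median under -0.2, and all 9 lie on chromosome 12 or 17. In the other direction 2 bins had a median over 0.2, at 0.33 over 41 genes on chromosome 13 and at 0.26 over 21 genes on chromosome 5. The stretches of chromosome 17 and 12 had medians of -0.33 and -0.31 after LPS. Between the Ing4 and Socs1 knockouts their medians were 0.04 and 0.06, close to the median of 0 over the other chromosomes. Enpp4, H2-M3, Ier3, 9130008F23Rik and, named after its values were seen, Qpct of the falls and Slc8a1 of the rises lie in the stretch of chromosome 17.

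**Figure D5:**
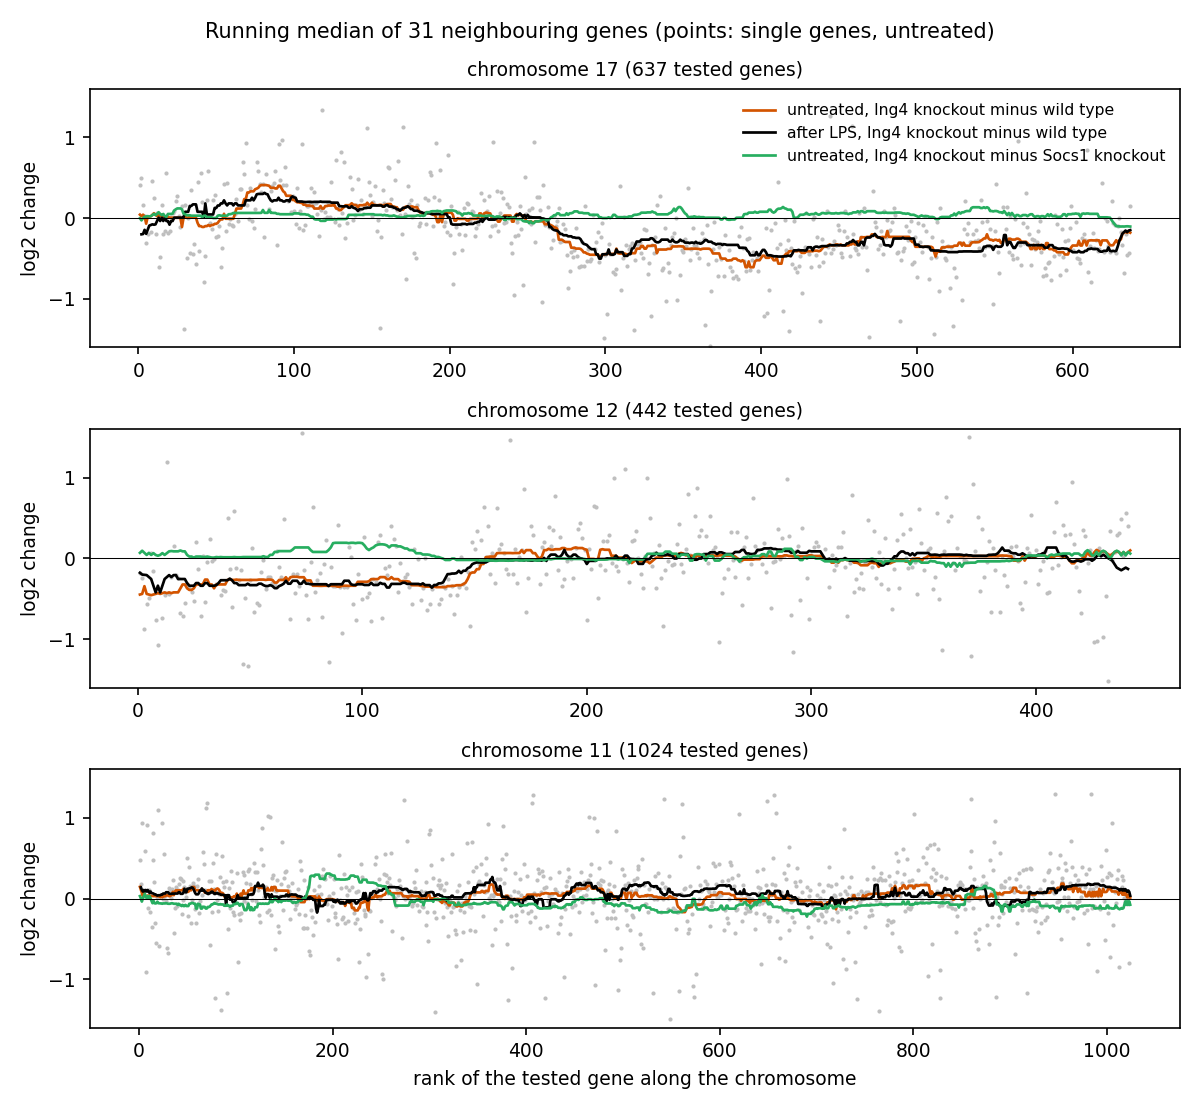
Running median of the log2 change over 31 neighbouring tested genes, by rank of the gene along chromosomes 17, 12 and 11 (chromosome 11 as a chromosome without such a stretch). Orange is untreated Ing4 knockout minus wild type, black the same after LPS, green untreated Ing4 minus Socs1 knockout, and grey points are single genes within 1.6 of 0. The orange and black lines lie below 0 together over the later part of chromosome 17 and the first part of chromosome 12, where the green line stays near 0.

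The promoters of the called genes were searched for letter patterns as a description of what the set shares. RefSeq windows of 250 bases were found for 40 of the 47 genes, 49 windows in all. The GC box GGGCGG, on either strand, was in 63.3% of them, in 57.4% of 11519 windows of tested genes and in 32.7% of all 32851 windows. TGANTCA, the AP-1 pattern, was in 2.04%, against 4.31% of windows of tested genes, and CCGGAAG, an ETS core, in 4.08% against 14.5%. TATAAA was in 10.2%, against 6.27%. Promoters of rises and falls held the GC box in 57.1% and 65.7% of windows. The median number of CpG dinucleotides was 11 in the called set and 16 in windows of tested genes. A match of letters is a description and no sign that a factor binds.

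The size of the set depended on single libraries and on the method. The number of genes called was 3 without wild-type library 1, 2 without wild-type library 2, 6 without knockout library 1 and 4 without knockout library 2, and it was 211 with DESeq2. Of the 47, 18 were called in the fit of all 12 libraries. Tnc and Chst11 were among those not called there (edgeR adjusted p = 0.443 and 0.329). Map6 and Dmwd were called in 6 of the 12 alternatives that tested them. Btbd3, Igsf11, Pcbp4, Peg12 and Sp8 were called in 7 of 12.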

How the data were processed

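RNA was measured in 12 RAW264.7 libraries, 2 per group, of which the 4 untreated wild-type and Ing4 knockout libraries are the subject here. Per the labels' protocols, poly(A) RNA was sequenced as single 75-base reads from a stranded kit. The authors deposited 1 table of read counts per Ensembl gene (54232 genes, 54079 with a symbol), unscaled, and tables of changed genes with log2 changes and adjusted p-value columns, per the file headers. The submitters' processing notes list HISAT, StringTie, HTSeq, FastQC and DESeq2, without versions. The notes name the human build GRCh38, but identifiers are mouse, and 98 of 104 positions in the authors' untreated table (94.2%) equal those of GRCm38, which gives the coordinates here.

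Counts were tested in R 4.3.3 with edgeR 4.0.16 (filterByExpr, TMM scaling, robust quasi-likelihood F-test, Benjamini-Hochberg over all tested genes, called under 0.05). The untreated comparison and that with the Socs1 knockout used 1 fit of the 6 untreated libraries, with a biological coefficient of variation of 0.219. The LPS comparison and the difference between states used the 8 wild-type and Ing4 knockout libraries (0.214). These choices keep out a Socs1 knockout library treated with LPS that stood apart. Printed CPM values were scaled by TMM over all 12 libraries, and each standard error is the size of the log2 change divided by the square root of F. Library pairs of a group correlated at 0.987 (wild type) and 0.981 (knockout) in log2 CPM and differed by more than sampling noise, so neither pair was treated as a single library. Where a group had 0 counts, the fold is a bound against 3 counts for that group. Where it had 1 to 3, the unmodelled ratio is given with its 95% interval (exact binomial, counting error only).

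The library rule, the gene lists and the fits were chosen with earlier results of these data known. Named genes are Ing4 and genes overlapping it, up to 15 called rises and 15 falls with the largest change and 8 more with the smallest p (gene symbol, higher group averaging 2 CPM or more, groups apart), up to 4 called members of each list, and up to 10 called genes with 0 to 3 counts in 1 group. Of the 47 called genes, 7 overlap an annotated gene on the same strand, none of it tested. Alternatives were DESeq2 1.42.0, voom of limma 3.58.1, other scalings, filters, thresholds, sets of libraries and a replicate block. The scripts were tested on simulated counts.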

Additional observations from a re-analysis of the deposited data

How the results depend on the processing

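The counts of called genes depended on the method and on the libraries fitted. For the untreated comparison (47), the count was 211 with DESeq2, 550 without a filter on low counts, 19 with a mean of at least 5 CPM, 5 at an adjusted p of 0.01, 29 against a fold of 1.5, 18 with all 12 libraries, 177 with the 4 libraries alone and 94 with the 8 of wild type and Ing4 knockout. It was 39 to 60 with voom, other scalings or 11 libraries, and 2 to 6 with 1 library left out. After LPS (86), it was 295 with DESeq2, 817 without a filter, 26 at 5 CPM, 27 at 0.01, 13 with 12 libraries, 40 with 11 libraries, and 26 to 64 with 1 library left out. Against the Socs1 knockout (14), it was 118 with DESeq2, 304 without a filter, 9 at 5 CPM, 7 at 0.01, 6 with 12 libraries, 22 with 11 libraries and 3 to 108 with 1 library left out. For the difference between LPS and untreated (0), DESeq2 gave 3 and no filter 39, and it was 0 with 1 library left out in each case. None of the 47 genes called untreated changed sign under any alternative. The cause of these differences was not tested. A fit to the 4 LPS libraries alone, added after the data were seen, called 72 genes.

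The replicate numbers are shared between groups. Untreated wild-type and Ing4 knockout libraries of the same number did not deviate together over all genes (correlation 0.0394, and 0.134 after LPS). This cannot show whether same-numbered libraries were handled together, so the main fits took no pairing. With the replicate number as a block, 28 genes were called untreated, 185 after LPS, 8 against the Socs1 knockout and 0 for the difference, where a block within genotype gave 1.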
